A study of Homo sapiens with 24 samples.

Results

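BRAT1, INTS9, INTS11 and WDR73 were followed by name through every count table of the series, together with SCAND2P and PUSL1, which lie on the strand opposite WDR73 and INTS11. Their rows were found by name, with no threshold on a measured value, and all 6 were present among the 61248 features of each table. The cells were of the human embryonic stem cell line H7, as 2 BRAT1 KO lines (BRAT1 KO 1 and BRAT1 KO 2) and 2 control lines (Control 1 and Control 2). Each line was sampled at day 14 of ventral differentiation, as neural progenitors, and at day 0, as undifferentiated stem cells, in biological replicates A, B and C, so that 24 libraries were analysed. The sources used here do not say how the lines were edited or whether each is 1 clone.

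BRAT1 is a HEAT repeat protein first described as a partner of BRCA1 and ATM, and it also binds the pair formed by INTS9 and INTS11. INTS11 is the RNA endonuclease of the Integrator complex, which cleaves nascent snRNA, enhancer RNA and short promoter-proximal transcripts, and INTS9 is its catalytically inactive partner. WDR73 is a WD40 repeat protein that has been found with the same proteins, and variants in the genes for BRAT1, INTS11 and WDR73 cause neurodevelopmental disease. PUSL1 is a pseudouridine synthase-like protein, and SCAND2P is a transcribed pseudogene of the SCAN domain family.

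The promoter windows of BRAT1 and INTS11 are shown because these were the members whose counts passed the test between genotypes, and 2 of the 6 members matched the RefSeq promoter table. Each window runs from 250 bases before to 50 bases after the annotated start on GRCh38.p14, on the minus strand, at chr7:2555475-2555774 for BRAT1 and chr1:1324611-1324910 for INTS11, and capitals mark CG dinucleotides.
BRAT1: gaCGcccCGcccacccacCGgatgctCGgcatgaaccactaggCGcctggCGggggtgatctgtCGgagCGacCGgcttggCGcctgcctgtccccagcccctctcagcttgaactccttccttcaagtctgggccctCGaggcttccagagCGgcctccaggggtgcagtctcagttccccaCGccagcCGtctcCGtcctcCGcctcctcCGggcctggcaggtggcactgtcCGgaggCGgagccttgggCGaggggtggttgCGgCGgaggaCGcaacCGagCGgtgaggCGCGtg
INTS11: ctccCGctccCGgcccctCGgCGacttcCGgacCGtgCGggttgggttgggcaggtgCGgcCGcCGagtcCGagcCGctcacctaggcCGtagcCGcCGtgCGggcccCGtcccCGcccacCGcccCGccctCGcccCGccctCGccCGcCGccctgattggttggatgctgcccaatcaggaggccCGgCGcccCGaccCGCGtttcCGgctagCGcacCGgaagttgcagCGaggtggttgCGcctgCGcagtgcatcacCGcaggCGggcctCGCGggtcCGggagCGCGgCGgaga
The BRAT1 window held 27 CG dinucleotides and the INTS11 window 44, against a median of 14 over 35116 windows of the same length, and 71.8% and 95.8% of windows held fewer. The motif CCGGAAGT was found 1 time on each strand of the INTS11 window and on neither strand of the BRAT1 window, and 4.14% of all windows held it. CCAAT was likewise found 1 time on each strand for INTS11 and not for BRAT1 (34.6% of windows). TATAAA (11.5% of windows) was in neither. Both strands were searched. These matches describe the letters only.

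In GENCODE 29 on GRCh38, BRAT1 (ENSG00000106009) spans 2537877 to 2555727 of chromosome 7 on the minus strand, and no annotated gene overlaps it on the other strand. INTS11 (ENSG00000127054, chromosome 1, 1311585 to 1324691, minus strand) shares 93 bp of exon with PUSL1 (ENSG00000169972, 1308567 to 1311677, plus strand), where the ends of both genes meet. WDR73 (ENSG00000177082, chromosome 15, 84639281 to 84654343, minus strand) shares 6740 bp of exon with SCAND2P (ENSG00000176700, 84631451 to 84647478, plus strand), which is 70.0% of the exon length of WDR73. INTS9 (ENSG00000104299, chromosome 8, 28767661 to 28890242, minus strand) holds the antisense gene INTS9-AS1 within its body, with an overlap of 3944 bp that contains no shared exon. The map of exons around each gene shows these arrangements.

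**Figure D1:**
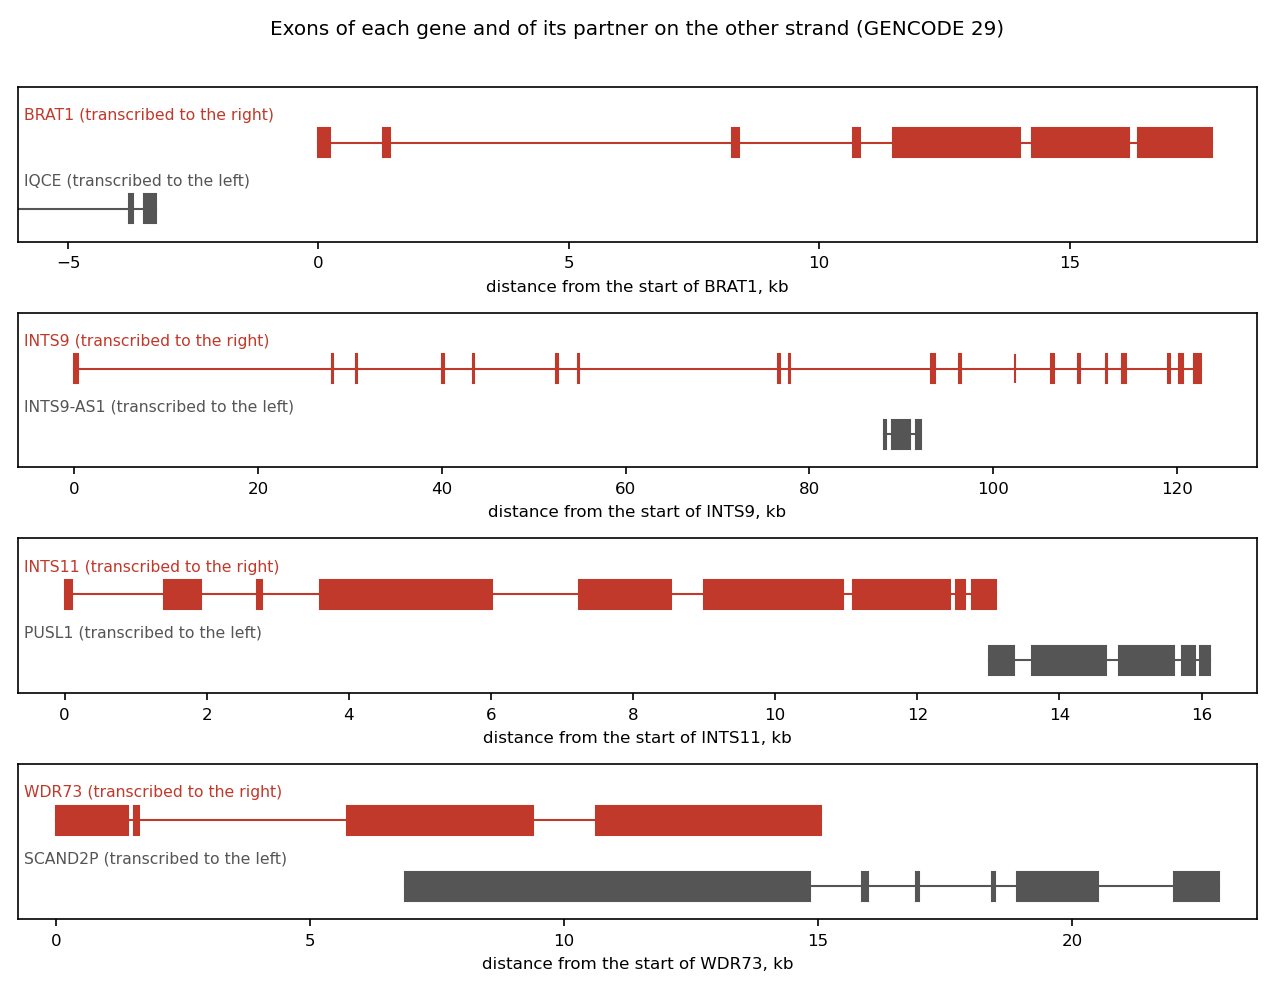
Exons of BRAT1, INTS9, INTS11 and WDR73 (red, boxes) and of a gene on the other strand (grey), drawn to scale against distance in kb from each red gene's start. Only WDR73 and SCAND2P share long stretches of exon (6740 bp), INTS11 and PUSL1 touch over 93 bp, and IQCE starts 3244 bp before BRAT1 and is drawn in part.

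Totals per library were 2228736 to 3726227 counts at day 14, with 20769 to 25247 features detected, and 1407832 to 2143871 counts at day 0, with 9299 to 15116 features. Among 1943 antisense genes paired with an overlapping coding gene, 1306 (67.2%) gathered more counts than their partner, so counts under a name may come from the other strand, and for BRAT1, INTS9, INTS11 and WDR73 the strand read cannot be told apart here. A gene name given with a level or a change below therefore stands for the counts under that name, whichever strand was read. Over the 489 pairs in which the antisense name clearly led, coding counts were 2.84% ± 0.696 of the antisense counts in day 14 KO libraries and 1.97% ± 0.218 in day 14 control libraries (SD, n = 6 each, exact two-sided permutation p = 0.0173), and 0.865% in KO and 0.833% in control at day 0. Summed counts under several sets of cell type marker names also moved with genotype at day 14. The 9 neural progenitor markers summed to a median of 722 CPM (counts scaled to library total, range 584 to 1119) in KO and 401 CPM (272 to 487) in control, against 44.9 CPM in KO and 44.7 CPM in control at day 0. The 7 ventral markers summed to a median of 141 CPM (88.9 to 232) in KO and 12.1 CPM (7.10 to 15.6, DLX2 at 0) in control, the 5 neuron markers to 89.2 CPM (65.8 to 197) in KO and 33.0 CPM (20.2 to 55.9) in control, and the 5 neural crest markers to 33.6 CPM (12.6 to 43.2) in KO and 99.2 CPM (74.0 to 117) in control. The 9 pluripotency markers gave 82.7 CPM in KO and 90.5 CPM in control at day 14, with PRDM14 at 0 in KO and TDGF1 at 0 in control, against 79.7 CPM in KO and 73.2 CPM in control at day 0, so this sum did not set the days apart. The part of these shifts in the results on the 6 members was not tested, except for the strand share, which was also used as a covariate. In bulk RNA, fewer cells of a type and less RNA per cell cannot be told apart.

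Counts under the name of BRAT1, the edited gene, fell in day 14 knockouts in both lines, and to different extents. The level was 11.2, 7.66 and 16.9 CPM in the replicates of BRAT1 KO 1, and 86.8, 71.2 and 83.3 CPM in those of BRAT1 KO 2. In the controls it was 244, 273 and 270.0 CPM in Control 1 and 219, 317 and 186 CPM in Control 2. All 6 knockout libraries lay below all 6 control libraries, and all of KO 1 lay below all of KO 2. The exact two-sided permutation p was 0.00216 for KO against control (n = 6 libraries each). This is the smallest p that exchanging single libraries allows, and it takes no account of the 2 lines per genotype. The mean in KO 1 was 4.73% of the control mean and that in KO 2 was 32.0%.

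In edgeR's quasi-likelihood test the log2 fold change of BRAT1 in KO over control at day 14 was -2.47 (SE 0.57, adjusted p = 0.0111). Of the 6 members, 3 passed the filter on low counts there and 2 were called, with 21.7% of all 11408 features called. By line, the log2 fold change was -4.41 (SE 0.23, adjusted p = 1.81e-13) in KO 1, ranked 4 by p among 13420 features, and -1.72 (SE 0.16, adjusted p = 2.49e-08) in KO 2, ranked 27 among 13503. The lines themselves differed, by a log2 fold change of 2.72 in KO 2 over KO 1 (SE 0.32, adjusted p = 4.67e-05), ranked 4 of 12442 features, of which 0.402% were called. In Control 2 over Control 1 it was -0.14 (SE 0.16, adjusted p = 0.975, 0.244% of features called). The pooled call was lost without Control 1 (adjusted p = 0.0914), without Control 2 (0.0834) and with counts summed to 1 library per line (0.354), while the log2 fold change stayed between -4.41 and -1.72 over 25 alternatives. With the strand share as a covariate it was -3.46 (adjusted p = 0.0393).

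At day 0 the name gathered too few counts to show the edit. BRAT1 had 0, 0 and 0 counts in KO 1 and 8, 0 and 10 in KO 2, against 6, 0 and 0 in Control 1 and 2, 0 and 0 in Control 2. The groups overlapped, and BRAT1 stood below the filter, so the day 0 libraries give no check of the genotype labels at this depth. The limit that 3 counts set over the 6 libraries was 0.278 CPM in KO and 0.294 CPM in control.

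**Figure D2:**
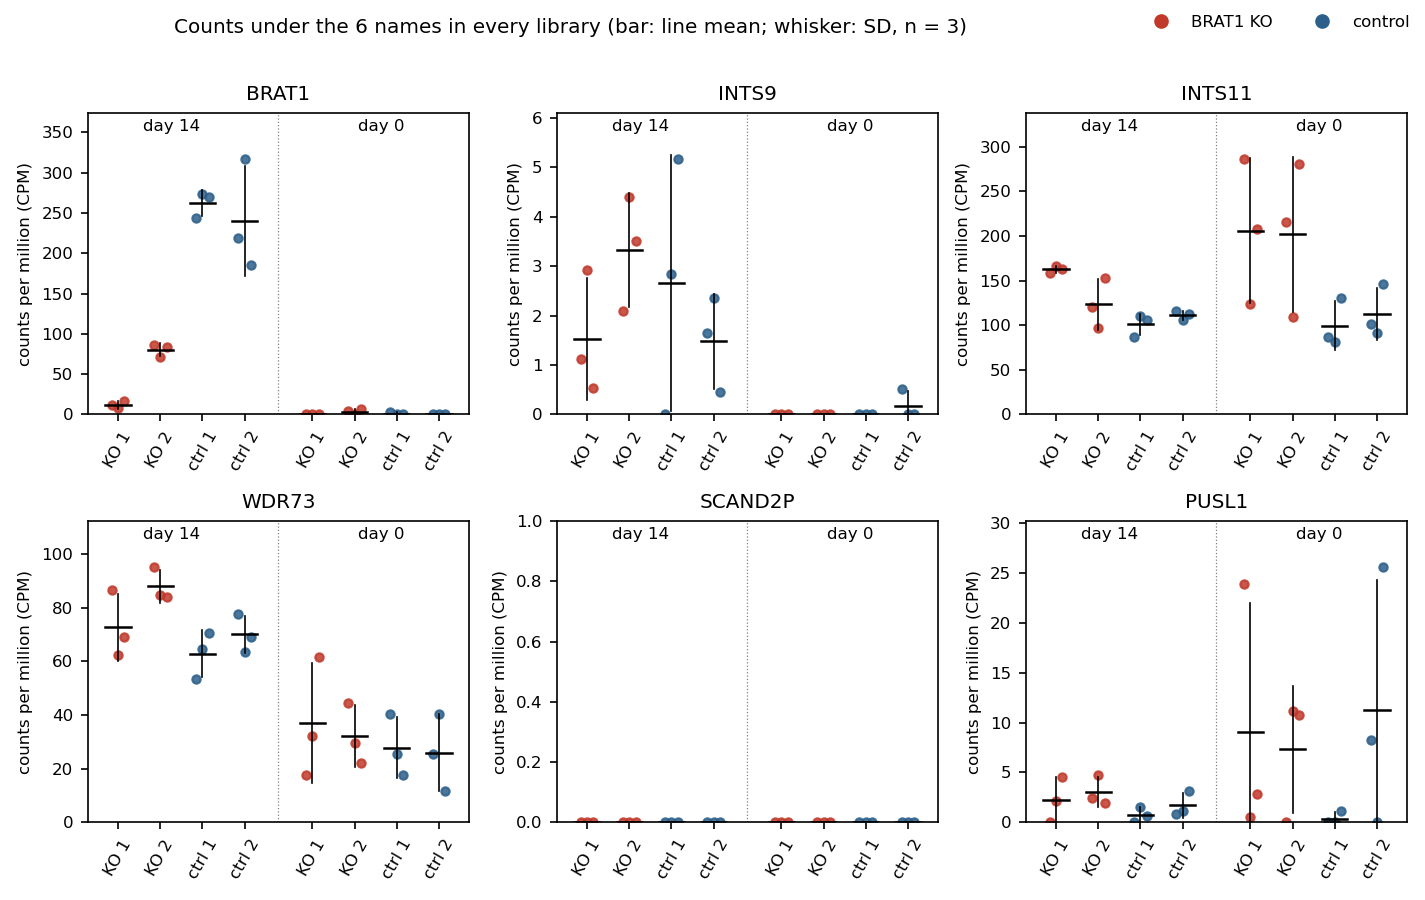
CPM under each of the 6 names in all 24 libraries (points; red, BRAT1 KO; blue, control), with the mean and SD of the 3 replicates of each line, day 14 on the left and day 0 on the right of each panel. BRAT1 at day 14 separates KO 1 (7.66 to 16.9 CPM), KO 2 (71.2 to 86.8 CPM) and the controls (186 to 317 CPM), INTS11 is higher in KO at day 0 with overlap, and SCAND2P is at 0 throughout.

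INTS11, the endonuclease that BRAT1 binds, was counted in every library. Its mean was higher in knockouts on both days, at day 14 by a modest amount and mainly in KO 1. There the level was 158, 166 and 163 CPM in KO 1 and 120.4, 96.6 and 153 CPM in KO 2. Control 1 had 87.2, 109.8 and 106 CPM, and Control 2 had 115, 106 and 113 CPM. All of KO 1 lay above all controls, and KO 2 overlapped them, with 1 of its 3 libraries below most controls. The means were 143 ± 28.2 CPM in KO and 106 ± 10.1 CPM in control (SD, n = 6 each).

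INTS11 rose in KO over control at day 14 (edgeR log2 fold change 0.42, SE 0.15, adjusted p = 0.0449), and 53.8% of the features tested had a larger change. KO 1 alone gave 0.60 (SE 0.15, adjusted p = 0.00622), and there 2 of 3 tested members and 17.2% of features were called. KO 2 alone gave 0.13 (SE 0.16, adjusted p = 0.623), and there 1 of 4 tested members and 16.5% of features were called. The difference between the KO lines did not pass the test (log2 fold change -0.45 in KO 2 over KO 1, SE 0.20, adjusted p = 0.524). The pooled call was lost in 21 of 25 alternatives, among them DESeq2 (adjusted p = 0.0806), the replicate block (0.145), the strand share as a covariate (0.0711) and the fit without KO 1 (0.623), all with a positive log2 fold change. Leaving out Control 1 replicate A, the lowest INTS11 library of day 14, gave 0.145.

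At day 0 the INTS11 level was 286, 124 and 208 CPM in replicates A, B and C of KO 1 and 216, 109 and 281 CPM in those of KO 2. It was 86.4, 81.0 and 131 CPM in Control 1 and 101, 90.8 and 146 CPM in Control 2. Replicate B was the lowest in all 4 lines, and within each of the 3 letters both KO libraries lay above both control libraries. The mean was 204 ± 75.3 CPM in KO and 106 ± 26.4 CPM in control (SD, n = 6 each), with an exact two-sided permutation p of 0.0173. It was 0.00926 when libraries were exchanged only within a letter, the smallest p that scheme allows. The within-letter test was added after seeing the data, so it is no separate result beside the order within letters. Neither test takes account of the 2 lines per genotype. The edgeR log2 fold change was 0.91 (SE 0.29, unadjusted p = 0.00537, adjusted p = 0.9997), ranked 7 of 4832 features. At day 0 edgeR called none of those features (0%), and 99 of them reached an unadjusted p under 0.05. DESeq2 also called 0, and 868 of its 26995 features reached that unadjusted p. Both shares are below the 0.05 that would be reached with no effect at all. INTS11 was called in the fit that held all 24 libraries (log2 fold change 0.94, adjusted p = 0.0459).

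**Figure D3:**
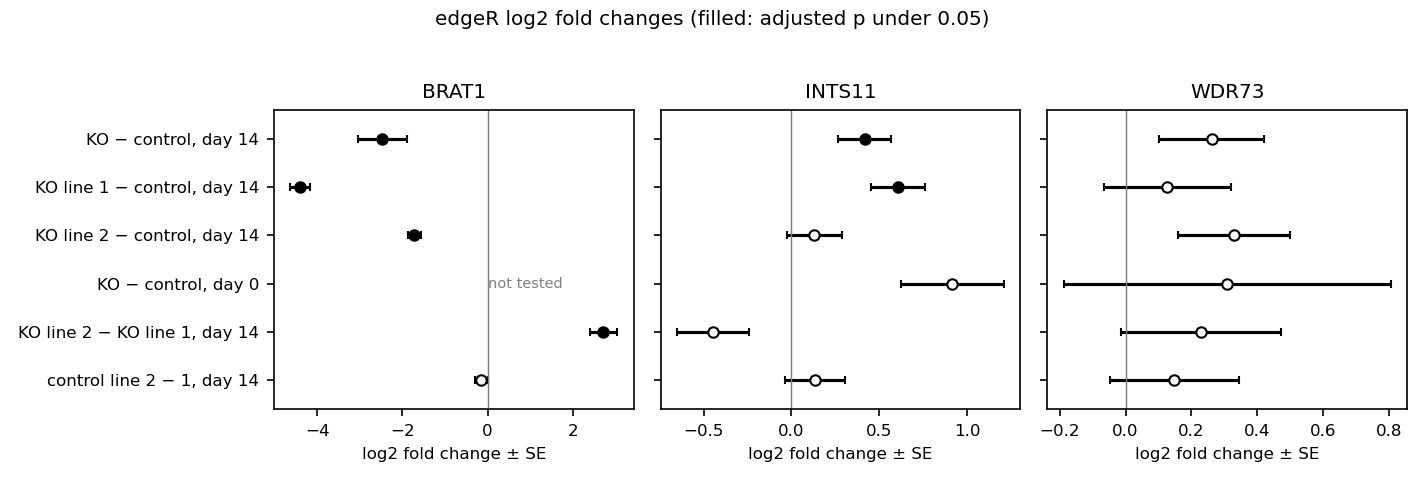
edgeR log2 fold changes with SE for BRAT1, INTS11 and WDR73 in 6 comparisons between genotypes and between lines, with filled points for an adjusted p under 0.05. BRAT1 is lower in both KO lines (-4.41 and -1.72) and differs between them (2.72), INTS11 is called with both KO lines (0.42) and in KO line 1 (0.60), and no WDR73 point is filled.

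INTS9, the inactive partner of INTS11, was barely counted. At day 14 it had 3, 8 and 2 counts in KO 1 and 6, 14 and 11 counts in KO 2. It had 0, 9 and 16 counts in Control 1 and 6, 8 and 1 counts in Control 2. The groups overlapped fully, at 2.43 ± 1.46 CPM in KO and 2.07 ± 1.86 CPM in control (SD, n = 6 each, exact two-sided permutation p = 0.723). INTS9 passed the filter only in the comparison of KO 2 with control (log2 fold change 0.63, SE 0.92, edgeR adjusted p = 0.699). At day 0 it had 0 counts in all 6 KO libraries and 1 count in 1 of the 6 control libraries. INTS9-AS1, the RNA gene inside INTS9 on the other strand, had 56 counts over the day 14 KO libraries and 110 over the controls, with median levels of 2.99 CPM in KO and 5.37 CPM in control (log2 fold change -0.88, SE 0.55, adjusted p = 0.267). Together INTS9 and INTS9-AS1 gave few counts, and INTS9 made up 42.2% ± 18.4 of them in KO and 30.7% ± 27.8 in control (SD, n = 6 each, exact two-sided permutation p = 0.409).

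WDR73 differed little with genotype. At day 14 it had 86.7, 62.4 and 69.2 CPM in KO 1 and 95.2, 84.7 and 84.0 CPM in KO 2. Control 1 had 53.5, 64.5 and 70.7 CPM, and Control 2 had 77.5, 63.6 and 69.1 CPM. KO 2 lay above all controls, and KO 1 overlapped them. The means were 80.4 ± 12.1 CPM in KO and 66.5 ± 8.08 CPM in control (SD, n = 6 each), with an exact two-sided permutation p of 0.0476, which became 0.0741 when libraries were exchanged within letters. In edgeR the log2 fold change was 0.26 (SE 0.16, adjusted p = 0.252), and it stayed above 0.05 in adjusted p in all 25 alternatives. At day 0 WDR73 ran from 17.5 through a median of 30.9 to 61.6 CPM in KO and from 11.8 through 25.6 to 40.4 CPM in control, with wide overlap (log2 fold change 0.31, SE 0.50, adjusted p = 0.9997).

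SCAND2P, of whose 10717 bp of exon 6740 bp, all in 1 of its 6 exon blocks, lie opposite exons of WDR73, had 0 counts in all 24 libraries, so WDR73 held 100% of the counts of the pair everywhere. A count of 0 beside the 1468 WDR73 counts in day 14 KO and the 1275 in day 14 control allows SCAND2P a share of up to 0.204% in KO and 0.235% in control, for counting error only. No test of this share was possible, since it did not vary. These limits lie below the coding share of the 489 pairs led by the antisense name at day 14, 2.84% in KO and 1.97% in control. EGLN1P1, which overlaps SCAND2P, also had 0 counts. Whether the 0 reflects the RNA present or the assignment of reads was not tested.

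PUSL1, tail to tail with INTS11, was also low. At day 14 it had 0, 6 and 17 counts in KO 1, 7, 15 and 6 in KO 2, 0, 5 and 2 in Control 1 and 3, 4 and 7 in Control 2, or 2.64 ± 1.77 CPM in KO and 1.23 ± 1.08 CPM in control (SD, n = 6 each, exact two-sided permutation p = 0.132). At day 0 the counts were 34, 1 and 6 in KO 1, 0, 20 and 17 in KO 2, 0, 0 and 2 in Control 1 and 16, 0 and 37 in Control 2. Libraries of a line thus ranged from 0 or 1 to over 15 counts at day 0 in 3 of the 4 lines, and the groups overlapped. INTS11 made up 98.0% ± 1.59 of the counts of the pair in day 14 KO libraries and 98.9% ± 0.925 in day 14 control libraries (SD, n = 6 each, exact two-sided permutation p = 0.271), and 96.2% in KO and 96.1% in control at day 0 (p = 0.981 by the same exact test). PUSL1 therefore held a small part of the pair in either genotype.

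The 4 members with enough counts were then compared between days. BRAT1 counts summed to 851 at day 14 and 18 at day 0 in KO lines, a ratio in CPM of 27.8 (95% counting interval 17.5 to 47.1), and to 4898 at day 14 and 8 at day 0 in control lines, a ratio of 325 (165 to 753). In edgeR BRAT1 rose at day 14 over day 0 in KO, with a log2 fold change of 4.19 and an SE of 0.81 (adjusted p = 0.000115), and in control, with 7.73 and 0.94 (adjusted p = 1.77e-07). In KO 2 of the 4 members tested were called, with 46.3% of 10971 features called, and in control 1 of 4 was called, with 42.8%. The interaction of genotype and day for BRAT1 was -3.55 (SE 1.25, adjusted p = 0.151), and 1.47% of features were called there. BRAT1 was below the filter at day 0, so it entered the fit of both days through its day 14 counts. These edgeR results for BRAT1 are not independent of that.

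INTS11 fell at day 14 over day 0 in KO (log2 fold change -1.04 with an SE of 0.24, adjusted p = 0.000539), and in control the value was -0.51 (SE 0.23, adjusted p = 0.078). The interaction did not pass the test (-0.53, SE 0.33, adjusted p = 0.484). These values depend on scaling. The median feature moved by 0.65 in KO and 0.60 in control with TMM scaling, and by 1.04 in KO and 0.83 in control with RLE scaling, under which INTS11 gave -0.66 in KO (adjusted p = 0.0192) and -0.31 in control (adjusted p = 0.279). In plain CPM the ratio of day 14 to day 0 was 0.713 in KO (95% counting interval 0.673 to 0.755) and 1.00 in control (0.931 to 1.08). Without KO 2 the call in KO was lost (adjusted p = 0.0581).

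WDR73 had a day 14 to day 0 CPM ratio of 2.19 in KO (1.95 to 2.45) and 2.40 in control (2.11 to 2.74). In edgeR its log2 fold change was 0.67 in KO (SE 0.35, adjusted p = 0.12) and 0.74 in control (SE 0.35, adjusted p = 0.092), near the shift of the median feature. It passed the test under RLE scaling in both (adjusted p = 0.0062 in KO and 0.0165 in control). PUSL1 gave -2.09 in KO (SE 1.11, adjusted p = 0.125) and -2.63 in control (SE 1.16, adjusted p = 0.0667), and without Control 2 the control value became 0.37 (adjusted p = 0.90). INTS9 was below the filter in these fits, with 44 counts at day 14 and 0 at day 0 over the KO libraries. Its pooled KO level at day 14, 2.40 CPM, was 8.62 times the 3-count limit at day 0, and the 95% counting interval of the ratio of the days began at 6.72.

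Per kb of exon, the order of the levels at day 14 was not the same in both genotypes. In KO, INTS11 led at 17.4 ± 3.43 CPM per kb, and WDR73 (8.35 ± 1.26) and BRAT1 (6.95 ± 5.72) stood in opposite orders in the 2 lines. In KO 1, BRAT1 at 1.15 to 2.55 CPM per kb lay below WDR73 at 6.48 to 9.00. In KO 2, BRAT1 at 10.7 to 13.1 CPM per kb lay above WDR73 at 8.72 to 9.89 and overlapped INTS11 at 11.8 to 18.6. In control, BRAT1 led at 37.9 ± 6.91 CPM per kb, followed by INTS11 at 12.9 ± 1.23 and WDR73 at 6.91 ± 0.840, with each clear of the next by more than its SD. PUSL1 and INTS9 followed at 1.06 ± 0.712 and 0.495 ± 0.298 CPM per kb in KO and at 0.493 ± 0.433 and 0.423 ± 0.380 in control, where they overlapped (SD, n = 6 each). At day 0, INTS11 led in KO at 24.8 ± 9.16 CPM per kb and in control at 12.9 ± 3.21.

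Of 13 other annotated features that overlapped a member or lay within 5000 bp of it, 8 averaged at least 2 CPM at day 14. Metazoa_SRP, opposite SCAND2P, is a name shared by many copies of an RNA repeat and is given no value, and 1 of the other 7 passed the test between genotypes, where 21.7% of all features did. HMBOX1, a homeobox gene that starts 151 bp from INTS9 and whose protein binds telomeres, had 136 counts in day 14 KO (7.09 ± 3.59 CPM) and 32 in day 14 control (1.79 ± 1.22 CPM, SD, n = 6 each), and rose in edgeR (log2 fold change 1.98 with an SE of 0.60, adjusted p = 0.0172). All KO libraries lay above all control libraries for HMBOX1, which was below the filter when only the day 14 control libraries were compared. HMBOX1 thus entered the test mainly through its KO counts, and neither the call nor the separation is independent of that. It was not called without KO 1 (adjusted p = 0.194), without KO 1 replicate C (0.0689), without Control 1 (0.0925), without Control 2 (0.12) or with the strand share as a covariate (0.145).

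IQCE, a ciliary protein gene that starts 3244 bp from BRAT1 in the opposite direction, had 1, 13 and 45 counts in KO 1 and 19, 21 and 42 in KO 2 at day 14, against 21, 6 and 5 in Control 1 and 13, 15 and 1 in Control 2. Those groups overlapped (log2 fold change 1.23, SE 0.58, adjusted p = 0.132), and with the strand share as a covariate the sign turned (-0.34, adjusted p = 0.834). At day 0 IQCE had 0 counts in all 6 KO libraries and 13 over 4 of the 6 control libraries. The other named neighbours had log2 fold changes of -0.36 for ACAP3, an Arf GTPase-activating protein gene, 0.26 for ZSCAN2, a zinc finger gene, 0.39 for ENSG00000240731, inside INTS11, and 0.30 for ENSG00000275120, opposite SCAND2P, with adjusted p between 0.442 and 0.694.

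Among genes of the same machinery, few passed the test at day 14. Those that did were higher in KO, a share near the 11% of all features called higher. The calls were too few to read a direction from. Of 17 Integrator subunits, 9 were tested, INTS11 rose and 0 fell, with a median log2 fold change of 0.13 against 0.073 over all features. Of 5 SOSS and PP2A partners, 2 were tested and INIP, a SOSS subunit, rose (0.98, SE 0.27, adjusted p = 0.0104), with a median of 22.1 CPM (11.9 to 32.5) in KO and 10.4 CPM (8.42 to 14.1) in control. Of 24 cleavage and polyadenylation or histone cleavage factors, 14 were tested, 2 rose and 0 fell, with a median of 0.34. ZNF473, a U7 snRNP partner in histone mRNA processing, had 34.3 ± 6.52 CPM in KO and 17.3 ± 7.45 CPM in control (0.98, SE 0.28, adjusted p = 0.0121), and CPSF2, the inactive partner of the nuclease CPSF3, had 13.3 ± 3.71 CPM in KO and 6.31 ± 3.09 CPM in control (1.05, SE 0.38, adjusted p = 0.0446). The 4 tested genes of the 6 reported BRAT1 partners and NEDD4 adaptors, among them ATM and BRCA1, had log2 fold changes of 0.25 to 0.51, and the smallest unadjusted p among them was 0.0707, for SMC1A. For comparison, 11% of all features were called higher and 10.7% lower. With the strand share as a covariate, INIP, ZNF473 and CPSF2 had adjusted p of 0.291, 0.0963 and 0.379, and with counts summed per line 0.101, 0.0956 and 0.119. The CPSF2 call was lost in 19 of 25 alternatives, 8 of them among the 12 fits that left out 1 library (0.0325 to 0.122), the INIP call in 7 of 25 and the ZNF473 call in 6 of 25.

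CPSF3, the cleavage endonuclease of polyadenylation and the paralogue of INTS11, was below the filter, with 19 counts over day 14 KO and 22 over day 14 control. UBE3D, a ubiquitin ligase gene, had 80 counts over day 14 KO (5 to 24 in each library) and 10 over day 14 control (0 to 7) and was also below the filter, and DESeq2, run without that filter, gave a log2 fold change of 3.05 (adjusted p = 0.00902). edgeR without its filter gave 2.89 (adjusted p = 0.0287). UBE3D passed the filter in some other edgeR fits, mainly through its KO counts, and those results are not independent of that. There its adjusted p was 0.151 without Control 1, 0.0616 without Control 2 and 0.123 with the strand share as a covariate. At day 0, 24 of the 24 UBE3D counts of the KO lines came from 1 library.

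**Figure D4:**
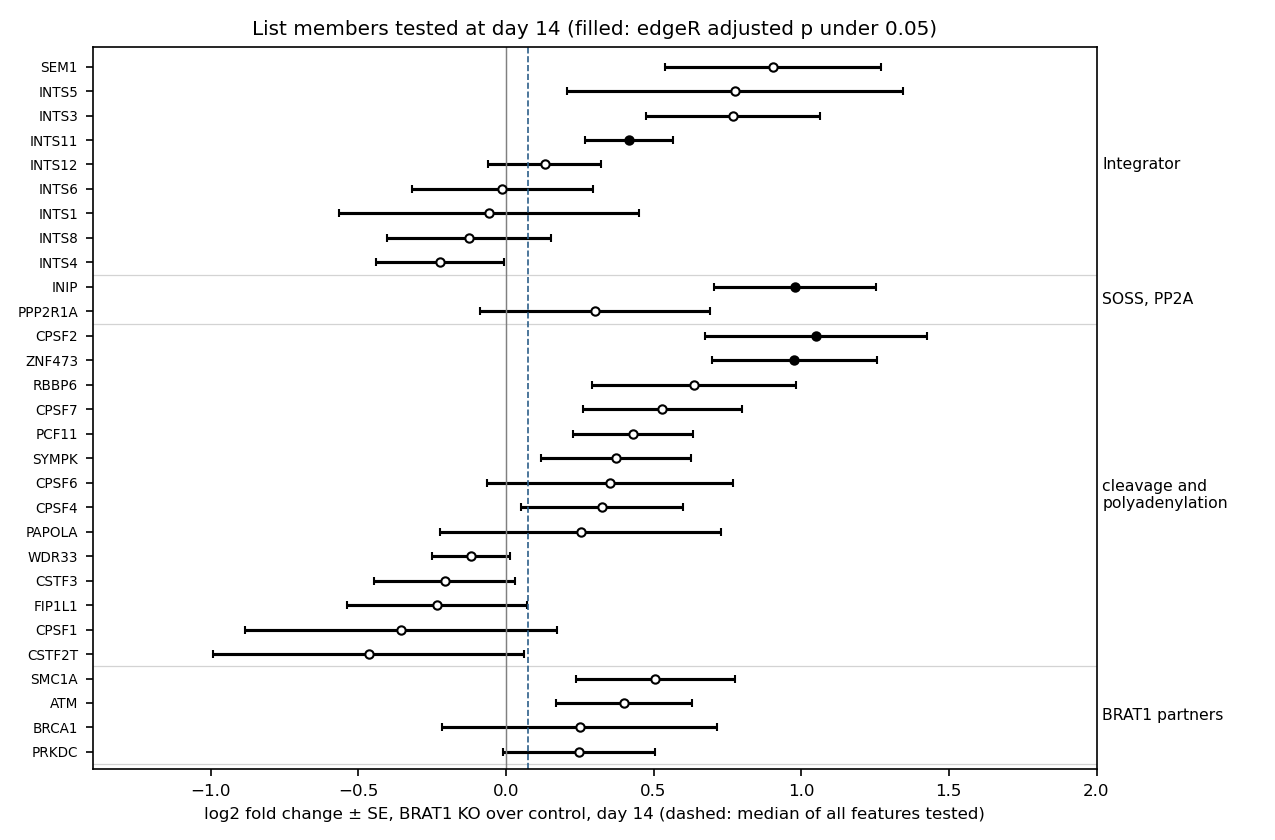
edgeR log2 fold change with SE of KO over control at day 14 for the 29 tested members of the 4 gene lists, grouped by list, with filled points for an adjusted p under 0.05 and a dashed line at the median of all features (0.073). INTS11, INIP, CPSF2 and ZNF473 are filled, and no member is called lower.

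The features closest to each member in pattern over the 12 day 14 libraries were found among 4860 features with a symbol and at least 10 CPM, by the root mean square difference of centred log2(CPM + 0.5). Nearest to BRAT1 were C10orf55 (0.44), SPAG4 (0.51), a nuclear envelope protein gene, and UQCC2 (0.54), a complex III assembly factor gene, against the 1.82 by which BRAT1 itself varied. Like BRAT1, they were lowest in KO 1, which follows from how they were chosen and is no separate result. UQCC2 had 7.40 CPM in KO 1 and 20.3 CPM in KO 2, against 117 CPM in Control 1 and 111 CPM in Control 2. INTS11 lay nearest to ZACN (0.14), TSC22D1-AS1 (0.14) and FXYD6-AS1 (0.15), against its own 0.30. WDR73 lay nearest to TICRR (0.13), ZFHX3 (0.14) and MT-ATP6 (0.15), against its own 0.23. For INTS9, MTG1, IGFL4 and RHD all stood at 0.72 to 0.73 against its own 1.01.

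**Figure D5:**
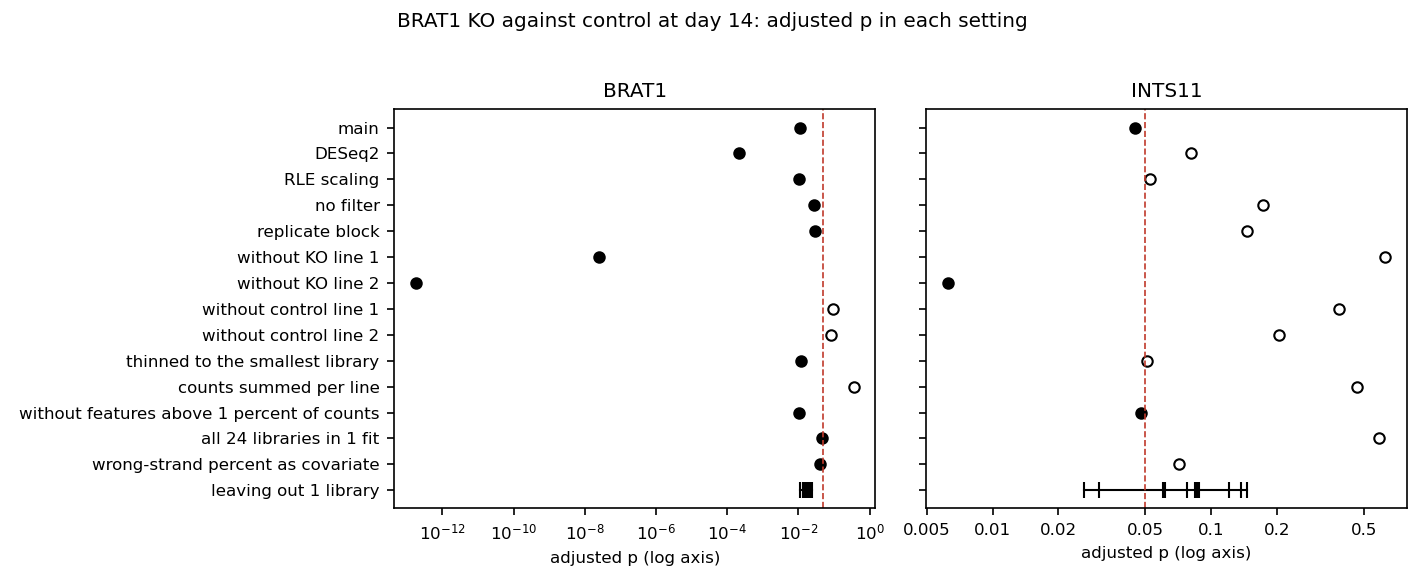
Adjusted p of BRAT1 and INTS11 in KO over control at day 14 under each processing setting (points, filled under 0.05; log axis; the dashed line marks 0.05), with the 12 fits that leave out 1 library as ticks. BRAT1 passes except without either control line and with counts summed per line, while INTS11 passes in the top row and in 4 of its 25 alternatives.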

How the data were processed

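RNA of 24 libraries was prepared with poly(A) selection and strand-keeping Click-Seq, per the labels' protocols. The deposited files hold raw counts of reads per feature, 1 table per library, made by the authors. The submitters' processing notes name bcl2fastq 2.20.0, STAR 2.7.9a, GRCh38, featureCounts from Subread 2.0.1, DESeq2 1.34.0 and R 3.5.1. Neither the annotation release nor the strand setting is stated in the sources used. Names were matched to GENCODE 29, which placed 57064 features with 90.2% of counts, and was not shown to be the authors' release.

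Counts were tested with edgeR 4.0.16 (quasi-likelihood, TMM scaling, filterByExpr, robust fit) under R 4.3.3, with Benjamini-Hochberg adjusted p under 0.05 as the threshold, over all features that passed the filter. CPM is the usual scaling of a count by the library's total count. The 3 libraries of a line entered as independent although each genotype has 2 lines, so p-values measure the spread between these libraries. The fits were tested on simulated data. Alternatives were RLE scaling, DESeq2 1.42.0, a replicate block, no filter, leaving out each library or line, thinning to the smallest library, counts summed per line, removal of features above 1% of counts, a fit of all 24 libraries and the strand share as a covariate. Intervals and limits cover counting error only, and PCR copies are not separate molecules. No replicate pair was identical (lowest chi-square per degree of freedom 5.46).

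The members and gene lists were chosen with earlier results of these data known. Named were the 6 members, up to 3 genes of each list with the smallest adjusted p past the threshold in KO against control at day 14, CPSF3 and UBE3D, neighbours within 5000 bp with at least 2 CPM at day 14, and the 3 nearest patterns of 4 members. The CPM permutation tests within letters were added after seeing the data. Promoter sequences are from RefSeq on GRCh38.p14.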

Additional observations from a re-analysis of the deposited data

Results flagged for a closer look

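BRAT1 at day 14 differed between BRAT1 KO 2 and BRAT1 KO 1, so that the same contrast with the controls had different sizes in the 2 lines (edgeR adjusted p = 4.67e-05 for the difference, higher in 3 of 3 libraries of KO 2). For IQCE, the neighbour of BRAT1, the change from day 0 to day 14 differed between KO and control (log2 fold change 6.31, SE 1.64, edgeR adjusted p = 0.0469). All 6 KO libraries of day 0 had 0 IQCE counts, so this fitted value is no bound, and 26 of its 32 alternatives had an adjusted p above 0.05, with a range of 0.0196 to 0.272.

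Of 19 groups of 6 libraries tested, 4 had a library set far from the others. The chance rate of the rule, about 1 in 20, is for normally distributed values and does not hold for counts mostly at or near 0. The day 0 groups below are of that kind, so 4 of 19 cannot be read as an excess. In day 0 controls, Control 1 replicate A had 2.91 CPM of BRAT1 (6 counts) and the others 0 to 1.03 CPM. Control 2 replicate A held the only INTS9 count of day 0, at 0.513 CPM. Control 2 replicate C had 25.6 CPM of PUSL1 (37 counts) and the other day 0 controls 0 to 8.22 CPM. In day 14 controls, Control 1 replicate A had 87.2 CPM of INTS11 and the others 106 to 115 CPM. Each group of 6 joins 2 lines.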

How the results depend on the processing

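Over 60 results and 1315 alternatives, 1115 kept their direction and their side of the threshold or stayed within 1.5 times. The count of features called for KO against control at day 14 (2474) became 1552 without Control 1, 1266 without Control 2, 1578 after thinning, 241 with all 24 libraries in 1 fit and 1530 with the strand share as a covariate. At day 0 the count of 0 became 13 with no filter, 1 without Control 1, 1 with counts summed per line and 116 with all 24 libraries. For day 14 against day 0 it was 5077 in KO (8947 with DESeq2, 8739 with no filter) and 4699 in control (7288 with DESeq2, 2926 without Control 2). The interaction count of 161 became 549 with DESeq2, 792 with no filter, 23 without KO 1, 58 without KO 2, 40 without Control 1, 16 without Control 2 and 95 after thinning. KO 2 against KO 1 gave 50 calls, 154 with DESeq2 and 129 with no filter, and Control 2 against Control 1 gave 28, and 86 with no filter. Leaving out 1 library gave 1412 to 2151 calls for KO 2 against control, 91 to 259 for the interaction, 22 to 140 for KO 2 against KO 1 and 21 to 57 for the controls.

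INTS11 at day 14 had an adjusted p of 0.0806 with DESeq2, 0.0523 with RLE scaling, 0.172 with no filter, 0.623 without KO 1, 0.383 without Control 1, 0.203 without Control 2, 0.0508 after thinning, 0.465 with counts summed per line, 0.584 with all 24 libraries and 0.0711 with the covariate, and 0.0261 to 0.145 leaving out 1 library. BRAT1 had 0.0914 without Control 1, 0.0834 without Control 2 and 0.354 summed per line. INTS11 at day 0 had 0.0459 with all 24 libraries, and its day contrast in KO had 0.0581 without KO 2. WDR73 between days had 0.000857 (DESeq2) and 0.0062 (RLE) in KO and 0.00461 and 0.0165 in control, and 0.0348 to 0.228 and 0.0312 to 0.181 leaving out 1 library. INTS11 in KO 1 had 0.00579 to 0.0559 and the BRAT1 interaction 0.0444 to 0.344 leaving out 1 library.

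Values that passed no threshold as reported changed sign in these settings. PUSL1 between days in control (0.90, and 0.0425 to 0.424 leaving out 1 library) and its interaction (0.702, and 0.788 to 0.993) did so without Control 2. The WDR73 interaction did so with DESeq2 (0.927), RLE scaling (0.958), without KO 1 and without Control 2 (both 1.00), and ran from 0.827 to 1.00 leaving out 1 library. Leaving out 1 library also turned WDR73 in KO 1 (0.545 to 0.840) and INTS11 in KO 2 (0.512 to 0.978). IQCE turned with the covariate (0.834), ZSCAN2 without KO 1 (0.928) and after thinning (0.966), and ENSG00000275120 without KO 1 (0.896). Among exact permutation tests of CPM, INTS9 at day 14 turned without KO 2 (0.726) and without Control 2 (0.869), and PUSL1 at day 0 without Control 1 (0.738), with 0.182 to 0.935 leaving out 1 library. The cause of these changes was not tested.

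The labels do not say that a replicate letter marks a shared batch, and the letters were not taken as pairs. Deviations of same-lettered libraries correlated at -0.30 to 0.21 at day 14. At day 0 all 18 same-letter pairs (0.057 to 0.26, 12 of them over 0.1) lay above all 36 different-letter pairs (-0.16 to 0.018), a hint of pairing at day 0 from the data and not from the design. With the replicate block at day 0, INTS11 had an adjusted p of 0.998 and edgeR called 0 features, with 282 at an unadjusted p under 0.05. With the block at day 14, INTS11 had an adjusted p of 0.145, BRAT1 0.0292, KO 2 against KO 1 gave 228 calls and Control 2 against Control 1 gave 51. Depth limits INTS9, PUSL1, CPSF3 and all of day 0, where BRAT1 is near 0.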
